A study of Arabidopsis thaliana with 24 samples.

Results

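Leaves of Arabidopsis thaliana plants that carry ERF104 behind the 35S promoter were set against leaves of the erf104 knockout, both infiltrated with water and harvested after 4 h. The comparison holds 6 of the 24 arrays of the study, 3 labelled 35S::ERF104 and 3 labelled erf104-ko (erf104 from here on), and its arrays were assigned by these labels and not by their values. Plants were 6 weeks old and grown on soil under short days, and each array is one Affymetrix ATH1 hybridisation of total leaf RNA. The remaining arrays are wild-type Col-0 and mpk6-ko (mpk6) leaves given water, and all 4 lines given 1 µM flg22, the peptide of bacterial flagellin that leaf cells sense, again for 4 h. No Col-0 array enters the comparison, so it sets a line with forced ERF104 against a line without it. Levels in Col-0 under water are given beside some of the results, as values only. The cauliflower mosaic virus 35S promoter is active in most leaf cells, and the labels name neither the number of independent transgenic lines nor the number of plants behind an array. The p-values therefore measure the spread between arrays, which may be technical.

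ERF104 is a transcription factor of the ethylene response factor (ERF) family, group IX, whose members bind the GCC box, a short element found in promoters of defence genes. It is a substrate of the mitogen-activated protein kinase MPK6, and the study as a whole asks how flg22 acts on that pair through ethylene. Plant defensins of the PDF1.2 type are the usual readout of group IX factors, and they are also induced by ethylene and jasmonate. Indole glucosinolates and camalexin are defence compounds made from tryptophan.

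The 6 arrays were alike in overall signal. Correlations of log2 signals were between 0.907 and 0.913 within 35S::ERF104, between 0.874 and 0.921 within erf104, and between 0.869 and 0.916 across the groups. All values are linear signals scaled by the authors, and differences are on the log2 scale, given ± the fit's standard error (SE). The authors' deposited detection calls were present on every array of the group for 11840 probe sets in 35S::ERF104 and 10483 in erf104. Col-0 under water stood apart, with correlations of 0.614 to 0.734 among its arrays and 2386 probe sets called present on all of them. Replicate 2 of erf104 under flg22 correlated at 0.223 to 0.250 with every other array of the study, and values under flg22 below leave it out unless stated. All 5 mesophyll markers were called present in both groups, and their summed signal was 195370 to 231662 in 35S::ERF104 and 133058 to 353566 in erf104.

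ERF104 itself separated the lines as labelled. Its signal was 26917, 23344 and 30769 in 35S::ERF104 and 51.5, 18.6 and 29.7 in erf104, where the probe set was called absent. The wild-type arrays read 61.2, 221 and 284, far closer to the knockout than to the 35S line. Since erf104 was at background, the difference can only be bounded, at 515-fold or more (limma adjusted p = 4.72e-09). For such bounds the dim group is set, array by array, to the lowest signal among probe sets called present (46.6 to 58.5 in erf104) or to its own signal if that is higher. The bounds leave out the spread between arrays, so they are not confidence limits. Some probe sets were called absent above that floor.

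The other group IX factors gave no call under water. Of 16 members on the array, ERF104 was the single one past the adjusted threshold of 0.05. ERF15, ERF6, ORA59 and AT5G07580 were higher at an unadjusted p under 0.05, a level that 5.15% of all probe sets reached in that direction. ERF15 read 378, 330 and 400 in 35S::ERF104 and 247, 208 and 130 in erf104 (log2 difference 0.97 ± 0.28, limma adjusted p = 0.294). ORA59, which integrates ethylene and jasmonate signals, read 235, 30.7 and 200 against 2.80, 51.9 and 44.3, so its groups overlapped (log2 difference 2.61 ± 1.14, limma adjusted p = 0.505). AT5G61590, whose locus number adjoins that of ERF104, differed by -0.04 ± 0.23 (limma adjusted p = 0.974). ERF1A, ERF1B, ERF2, ERF5, ERF13, ERF98, ERF105, ESE1, AT4G18450 and AT5G43410 did not pass either, ERF1A being the highest of them at 0.72 ± 0.46 on the log2 scale, with limma adjusted p of 0.664 or more.

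The PDF1.2 defensins came next after ERF104. PDF1.2a read 24227, 14022 and 28479 in 35S::ERF104 and 7.81, 288 and 70.8 in erf104. PDF1.2b read 27959, 20653 and 27570 against 109, 216 and 43.9. In both genes every 35S::ERF104 array was far above every erf104 array, and the 3 Col-0 arrays, at 32.9, 15.2 and 114 for PDF1.2a and 36.8, 8.64 and 150 for PDF1.2b, were no higher than the brightest knockout array. PDF1.2a rose by 8.62 ± 0.90 (limma adjusted p = 0.00129) and PDF1.2b by 7.96 ± 0.41 (limma adjusted p = 1.85e-06). These sizes are uncertain. Replicate 1 of erf104 for PDF1.2a and replicate 3 for PDF1.2b lay below the lowest signals called present, 58.5 and 46.6. The PDF1.2b probe set is of the type that may also bind related transcripts, so the 2 values may share signal.

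Not every defensin moved. Of 8 plant defensins on the array only PDF1.2a and PDF1.2b passed the test. PDF2.2 was bright in all arrays, at 6564, 5245 and 5247 in 35S::ERF104 and 6291, 6459 and 6535 in erf104, and differed by -0.19 ± 0.19 (limma adjusted p = 0.804). PDF2.3 differed by 0.18 ± 0.20 and PDF1.4 by -0.20 ± 0.36, with limma adjusted p of 0.832 and 0.895. PDF1.1 read 175, 6.20 and 36.8 against 70.7, 3.83 and 2.16, overlapping groups with a log2 difference of 2.03 ± 1.49 (limma adjusted p = 0.712). PDF2.1 and PDF2.5 differed by -0.08 ± 1.58 and 0.43 ± 1.24, errors too wide to place them (limma adjusted p = 0.993 and 0.941).

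**Figure D1:**
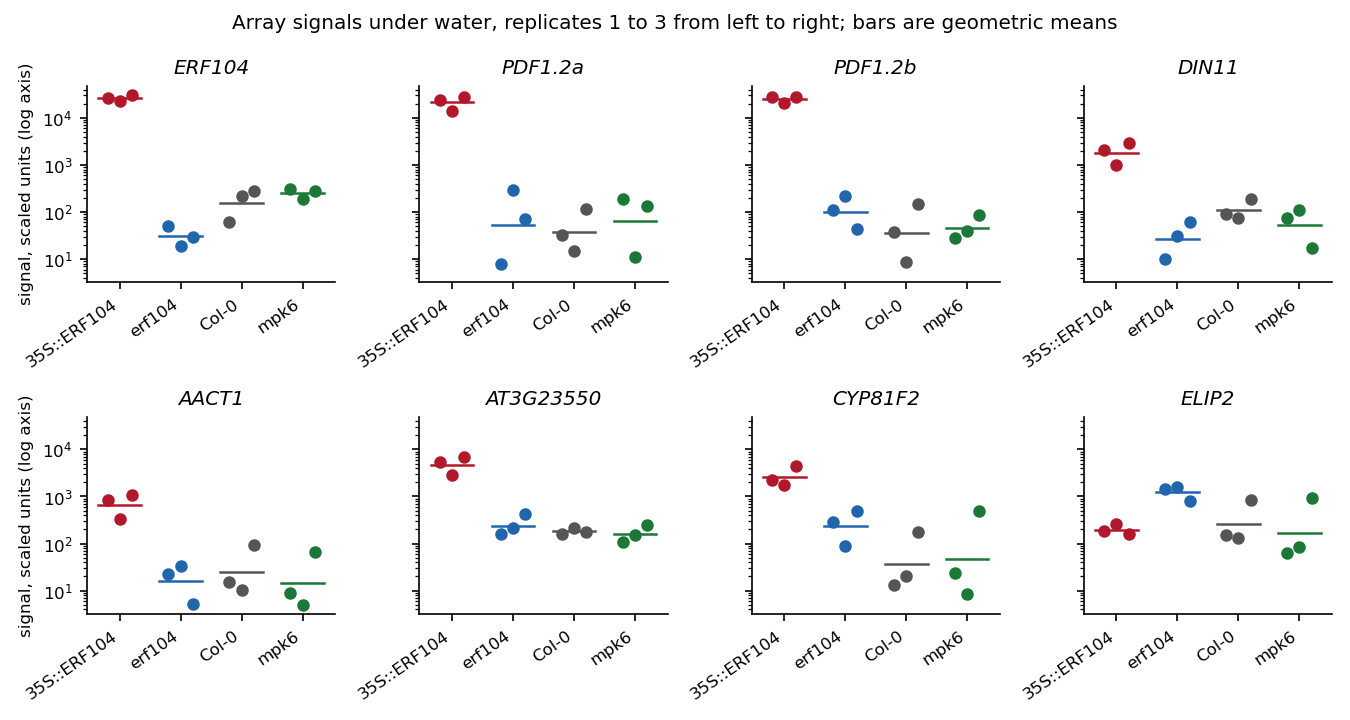
Scaled array signals on a log axis for 8 genes in the 4 lines under water, 1 point per array and a bar at the geometric mean of 3 arrays. ERF104, PDF1.2a and PDF1.2b lie between 14022 and 30769 in 35S::ERF104 and at 315 or less in the other lines. Of the 8 genes shown, ELIP2 is lower in 35S::ERF104 than in erf104.

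Across the array, 35 of 22746 probe sets (0.154%) passed the threshold, 32 of them higher in 35S::ERF104 (0.141%) and 3 lower (0.0132%). A difference of more than 3-fold was reached by 23 of the raised and 1 of the lowered probe sets. For all 35 the 3 arrays of one group lay wholly above those of the other, which 15.3% of all probe sets also did (7.99% higher and 7.27% lower in 35S::ERF104). At an unadjusted p under 0.05, 2177 probe sets (9.57%) differed. The call depends on how the variance is modelled. ERF104 alone passed when limma was fitted without the intensity trend, and none passed in the methods' ANOVA after Benjamini-Hochberg adjustment, where 1894 had an unadjusted p under 0.05. ERF104, PDF1.2a, PDF1.2b, DIN11, AT3G23550, SUFE2, RPS12.1 and ELIP2 kept their call whichever of the 6 arrays was left out, and the other 27 lost it in at least 1 such fit. The count was 8, 24 and 10 without replicate 1, 2 or 3 of 35S::ERF104, and 14, 11 and 158 without replicate 1, 2 or 3 of erf104.

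**Figure D2:**
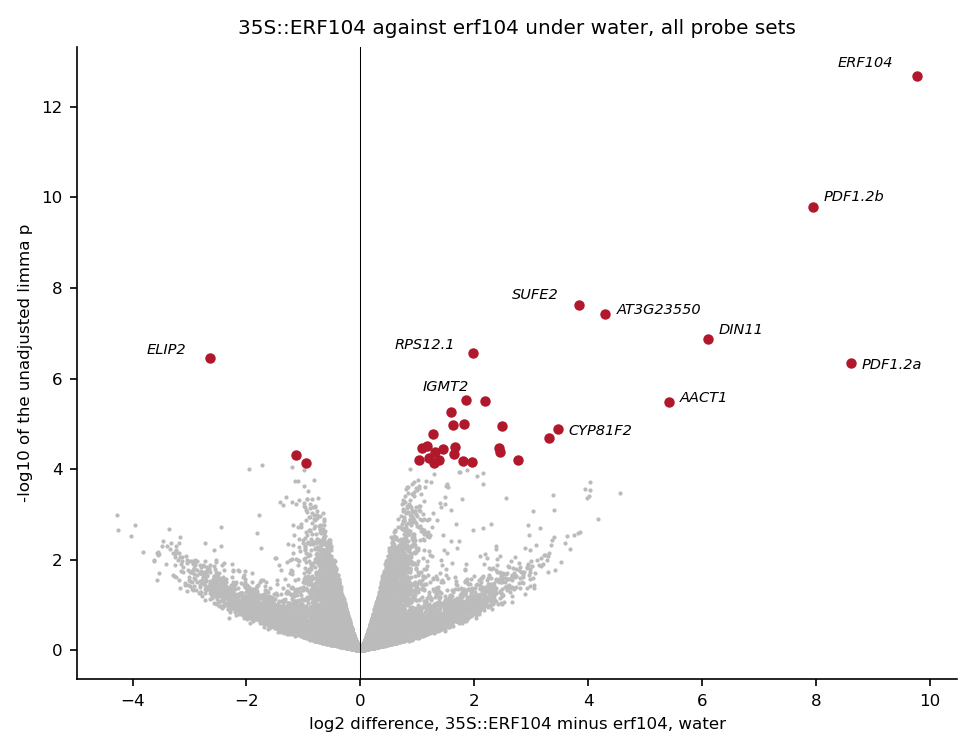
Fitted log2 difference (35S::ERF104 minus erf104, water) against -log10 of the unadjusted limma p, 1 point per probe set, with the 35 past the adjusted threshold in red. The red points lie mostly to the right, 32 against 3, and ERF104 stands at the far upper right. Fitted values of genes at background in one line are not bounds.

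Genes that make tryptophan and turn it into indole glucosinolates and camalexin gave 3 calls, all higher in 35S::ERF104. Of 20 members on the array, CYP81F2, IGMT2 and TSA1 rose and none fell at the adjusted threshold. At an unadjusted p under 0.05, 12 were higher and 1 was lower, where 5.15% and 4.42% of all probe sets were. The median of the list was 0.87 on the log2 scale, and that of all probe sets was 1.9e-05.

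In the order of the pathway, the tryptophan enzymes come first. TSA1, the alpha subunit of tryptophan synthase, read 3748, 3162 and 4958 in 35S::ERF104 and 1449, 1585 and 1762 in erf104, and rose by 1.29 ± 0.19 (limma adjusted p = 0.0229). ASA1, the anthranilate synthase subunit that controls entry into the pathway, read 2001, 1466 and 2652 against 862, 975 and 1204. Its arrays did not overlap, but its difference of 0.98 ± 0.22 did not pass (limma adjusted p = 0.135). PAT1 and AT2G04400 lay at 0.72 ± 0.24 and 0.99 ± 0.20 (limma adjusted p = 0.383 and 0.0929).

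The step from tryptophan to the glucosinolate core gave smaller values. CYP79B2 and CYP79B3, which make the shared oxime precursor, differed by 0.20 ± 0.23 and -0.09 ± 0.17, with limma adjusted p of 0.836 and 0.907. CYP83B1, SUR1, UGT74B1 and SOT16, which act in turn on that oxime, lay between 0.13 and 0.90, with limma adjusted p of 0.242 or more. On the camalexin branch, PAD3 was higher in all 3 arrays of 35S::ERF104 at 143, 151 and 145 against 6.93, 66.3 and 46.4 in erf104, where it was called absent. With erf104 raised to the lowest signals called present, the fold was 2.59. The fit of the measured signals did not pass (limma adjusted p = 0.370). CYP71A13 differed by -0.45 ± 0.96 (limma adjusted p = 0.915).

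The enzymes that modify the finished indole glucosinolate included the largest differences of the list. CYP81F2, which hydroxylates its indole ring, read 2262, 1727 and 4368 in 35S::ERF104 and 281, 89.9 and 493 in erf104, and rose by 3.47 ± 0.50 (limma adjusted p = 0.0181). IGMT2, which methylates the hydroxylated product, read 760, 718 and 929 against 167, 123 and 262, and rose by 2.19 ± 0.27 (limma adjusted p = 0.00686). IGMT3, outside the list and measured by a probe set shared with related genes, read 510, 576 and 816 against 94.3, 66.5 and 230, and rose by 2.46 ± 0.40 (limma adjusted p = 0.0386). IGMT4, also outside the list, overlapped between the groups, at 1299, 1418 and 1680 against 414, 993 and 1566. Its difference of 0.75 ± 0.36 did not pass (limma adjusted p = 0.537). IGMT1 read 385, 396 and 740 against 2.91, 41.7 and 71.4, a difference of 4.56 ± 0.93 that did not pass (limma adjusted p = 0.103). Its size is uncertain, as replicates 1 and 2 of erf104 lay below the lowest signals called present, 58.5 and 52.0. IGMT5 pointed the other way, at 768, 689 and 478 against 878, 1234 and 1090 (-0.74 ± 0.21, limma adjusted p = 0.281).

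Of the regulators, MYB51, an activator of the indole branch, read 629, 495 and 1061 in 35S::ERF104 against 143, 91.4 and 289 in erf104. Its difference of 2.15 ± 0.39 fell just outside the threshold (limma adjusted p = 0.0632). MYB34 and MYB122 differed by -0.43 ± 0.22 and 0.99 ± 1.04 (limma adjusted p = 0.566 and 0.815). The list of aliphatic glucosinolate and myrosinase genes, 15 on the array, had no call, none at an unadjusted p under 0.05 and a median of -0.27. FMO GS-OX4, which acts on aliphatic glucosinolates but is outside that list, passed and is given below.

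**Figure D3:**
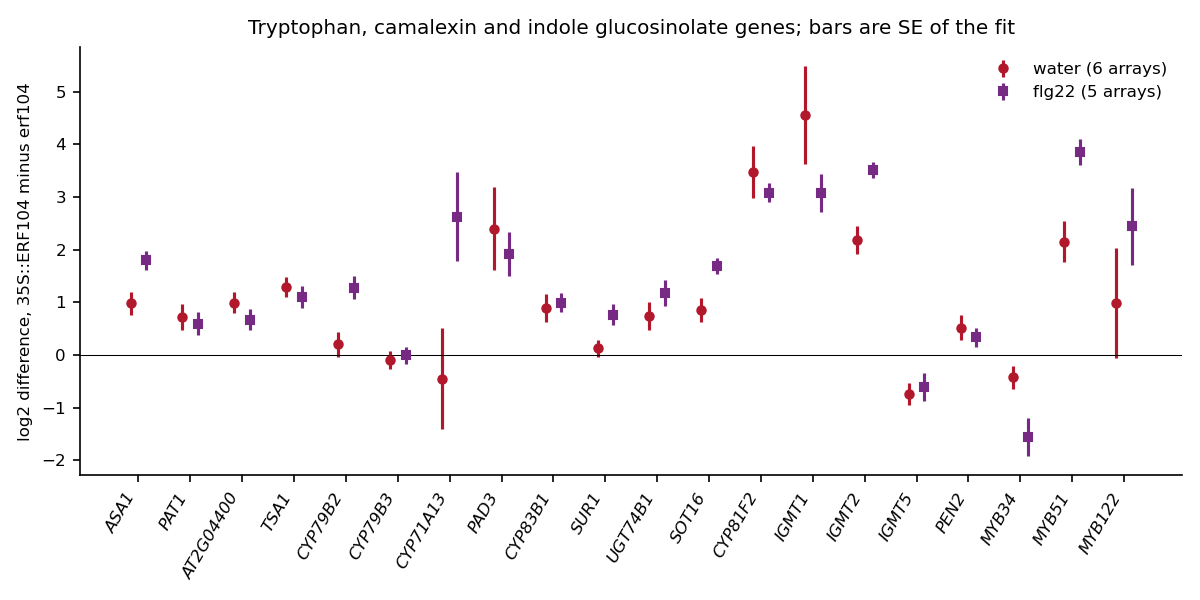
Log2 difference, 35S::ERF104 minus erf104, for the 20 tryptophan, camalexin and indole glucosinolate genes on the array, roughly in pathway order, with SE. Circles are the 6 arrays under water and squares the 5 arrays under flg22. CYP81F2, IGMT1 and IGMT2 lie above 2 in both, CYP79B3 lies near 0 and IGMT5 is negative in both.

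The other raised nuclear genes act in several branches of metabolism and transport. DIN11, a dioxygenase named for its induction in darkness, read 2047, 1020 and 2937 in 35S::ERF104 and 9.86, 30.7 and 61.6 in erf104, where it had no present call, and rose at least 31.99-fold (limma adjusted p = 0.000597). AACT1, an acyltransferase, read 833, 339 and 1069 against 22.2, 33.4 and 5.15, where it was called absent, at least 12.9-fold higher (limma adjusted p = 0.00686). AT3G23550 read 5445, 2859 and 6823 against 156, 211 and 426, and rose by 4.29 ± 0.36 (limma adjusted p = 0.000218). Those 3 genes had no overlapping arrays, and in each the lowest 35S::ERF104 array was replicate 2. SUFE2, an activator of the desulfurase that supplies sulfur to iron-sulfur clusters, read 1129, 998 and 1481 against 120, 51.8 and 90.4, called absent, which sets the rise at 14.3-fold or more (limma adjusted p = 0.000181). In Col-0 SUFE2 read 736, 166 and 160, above every erf104 array and below every 35S::ERF104 array.

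The nitrate transporters NRT2:1 and NRT1.8 rose. NRT2:1, a high-affinity nitrate carrier known from roots, gave 1928, 945 and 3517 against 296, 137 and 495, a rise of 2.77 ± 0.47 (limma adjusted p = 0.0459). NRT1.8, which takes nitrate out of the xylem, gave 418, 331 and 841 against 94.7, 77.2 and 89.0, a rise of 2.49 ± 0.35 (limma adjusted p = 0.0169). BCAT-2, a branched-chain amino acid transaminase, gave 549, 276 and 1007 against 33.3, 49.0 and 96.1, a rise of 3.31 ± 0.50 (limma adjusted p = 0.0256). Its size is uncertain too, as replicates 1 and 2 of erf104 lay below the lowest signals called present, 58.5 and 52.0. BCAT-2 differed from the defensins in the wild type, where Col-0 read 1155, 1562 and 813, well above the knockout and above replicates 1 and 2 of the 35S line. NRT2:1 in Col-0, at 273, 47.3 and 437, was no higher than the brightest knockout array.

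The remaining raised genes changed less. CYP72A14, called absent in erf104, rose 3.89-fold, a bound that equals the measured fold because its erf104 signals lay above the floor (limma adjusted p = 0.0473). G6PD2, which feeds the pentose phosphate pathway in plastids, was even within groups, at 915, 896 and 1238 against 423, 452 and 470, and rose by 1.16 ± 0.18 (limma adjusted p = 0.0355). AO1, an aldehyde oxidase, rose by 1.64 ± 0.27 and FMO GS-OX4, which oxygenates aliphatic glucosinolates, by 1.21 ± 0.20 (limma adjusted p = 0.0398 and 0.0459). RPS4 at AT5G45250, an immune receptor and not a ribosomal protein, rose by 1.38 ± 0.23 (limma adjusted p = 0.0459). It read 476, 508 and 653 in 35S::ERF104, 247, 173 and 210 in erf104, and 602, 266 and 421 in Col-0. EXL2 and ZW9 rose by 1.45 and 1.31 on the log2 scale, although 1 Col-0 array reached 4867 for ZW9, above every 35S::ERF104 array, and another reached 4244 for EXL2. AT5G04300, AT4G27300, AT1G64710, AT1G03220, AT4G37530, AT3G01690 and AT1G56220, named here by locus only, rose by between 1.08 and 2.43. The probe sets of AT1G03220 and AT4G37530 are of the type shared with related genes. For AT1G56220, Col-0 read 4077, 7398 and 1268, and 2 of those arrays were above all 3 of 35S::ERF104, which read 3741, 2784 and 3883.

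Defence genes just outside the threshold included PR4, a chitin-binding protein used as an ethylene and jasmonate marker. It read 567, 471 and 1352 against 216, 191 and 178, with no overlap (1.87 ± 0.33, limma adjusted p = 0.0578). The list of basic PR proteins, thionins and chitinases had no call among 15 members. At an unadjusted p under 0.05, 3 were higher, PR4, AT2G43590 and AT2G43580, where 5.15% of all probe sets were. The peroxidase PRX37 was called absent in erf104. With erf104 raised to the lowest signals called present, it was 4.01-fold higher in 35S::ERF104. The fit of its measured signals did not pass either (limma adjusted p = 0.112). Of 21 tau-class glutathione transferases, 2 (GSTU11 and GSTU12, both higher) had an unadjusted p under 0.05, close to the 9.57% of all probe sets that did, and the median of that list was -0.10.

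Of the 32 raised probe sets, 4 belong to the plastid genome. RPS12.1, a copy of the gene for plastid ribosomal protein S12, read 1220, 1088 and 1019 in 35S::ERF104 and 322, 303 and 222 in erf104, and rose by 1.99 ± 0.20 (limma adjusted p = 0.00102). PSBN, an assembly factor of photosystem II, rose by 1.59 ± 0.21, and ATPI and ATPH, subunits of the chloroplast ATP synthase, by 1.81 ± 0.31 and 1.04 ± 0.17 (limma adjusted p = 0.0102, 0.0459 and 0.0459). The probe set of the other copy, RPS12.2, differed by 1.18 ± 0.31 (limma adjusted p = 0.235), and the 2 may share signal. The plastid probe sets were gathered after these values were seen. Of 68 on the array, 15 were higher and 1 was lower at an unadjusted p under 0.05, where 5.15% and 4.42% of all probe sets were. Their median was 0.27 under water and 0.26 under flg22, with 50 and 49 of them positive. In Col-0, replicate 3 read 1599 for RPS12.1 and 1418 for PSBN, above every 35S::ERF104 array, and replicates 1 and 2 read 536 and 325 for RPS12.1. Their summed signal overlapped between the lines, at 534855 to 695331 in 35S::ERF104 and 381574 to 741339 in erf104. Nuclear photosynthesis genes, 33 on the array, had no call, none at an unadjusted p under 0.05, and a median of 0.04.

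Only 3 probe sets were lower in 35S::ERF104. ELIP2, a chlorophyll-binding protein made under light stress, read 185, 255 and 162 in 35S::ERF104, where it was called absent, and 1474, 1568 and 811 in erf104. It was 6.26-fold lower in 35S::ERF104, where the bound again equals the measured fold (limma adjusted p = 0.00116). In Col-0 ELIP2 read 153, 131 and 857, so 2 of those arrays were near the 35S line and 1 near the knockout. AT5G48760 fell by 1.13 ± 0.19 and AT3G28900 fell by 0.95 ± 0.16 on the log2 scale (limma adjusted p = 0.0416 and 0.0482).

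Flavonoid and anthocyanin genes lay on the same side without a call. Of 15 on the array, 5 were lower at an unadjusted p under 0.05 (4.42% of all probe sets were), 2 of the 15 had a positive difference, and the median was -0.79. Of the 15, 7 were called absent in both lines, MYB90 of the 5 among them, so the tally and the median include background signals. TT4, chalcone synthase and the first enzyme of the pathway, read 1213, 1728 and 2034 in 35S::ERF104 and 6956, 7048 and 3099 in erf104, with no overlap (-1.72 ± 0.30, limma adjusted p = 0.0522). FLS1 and F3H, which act later, differed by -1.78 ± 0.42 and -1.16 ± 0.31, and in both replicate 3 of erf104 overlapped the 35S arrays (limma adjusted p = 0.161 and 0.248). The phenylpropanoid and monolignol enzymes that precede them, 17 on the array, had a median of 0.13 and no call.

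Other hormone and immune lists showed no call. A list holds chosen members, so genes of the same class outside it may have passed, as the immune receptor RPS4 did. The WRKY factors (20), salicylic acid and EDS1 genes (16), MAP kinase cascade (14), immune receptors and early pattern response genes (20), jasmonate genes (20), ethylene biosynthesis (12) and ethylene perception and signalling genes (13) had medians between -0.14 and 0.44. The EAR repressor factors (7), class III peroxidases (7), senescence genes (8), alpha-expansins (9), ER chaperones (10), heat shock proteins and factors (14), clock genes (15), auxin-response genes (15) and genes of the abscisic acid and cold response (17) also had no call, with medians between -0.14 and 0.57. MPK6 read 1005, 932 and 1089 against 815, 732 and 1099 and differed by 0.21 ± 0.18 (limma adjusted p = 0.764). FRK1, a flg22-induced receptor kinase, differed by -0.16 ± 0.36, PR1, the salicylic acid marker, by 0.42 ± 0.47 and WRKY33 by 0.86 ± 0.46 (limma adjusted p = 0.921, 0.829 and 0.590). EBF2, an ethylene-induced F-box gene that feeds back on ethylene signalling, differed by 0.01 ± 0.23 (limma adjusted p = 0.991). ERS1, an ethylene receptor, CTR1 and EIL1 were higher and EBF1 lower at an unadjusted p under 0.05 (5.15% and 4.42% of all probe sets), none passing.

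Markers of other leaf tissues and organs did not pass either. The stomatal lineage, vascular, trichome and root and flower lists, with 11, 6, 5 and 8 members on the array, gave no call, and their medians lay between 0.04 and 0.41. Called absent in both lines were 5, 0, 3 and 5 of those members. SPCH and AT1G22690 of the stomatal list and AP3 of the flower list were higher at an unadjusted p under 0.05. Of all probe sets, 5.15% reached that level in that direction. The part of tissue composition in the results was not tested, and in leaf RNA fewer cells of a type and less RNA per cell cannot be told apart.

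**Figure D4:**
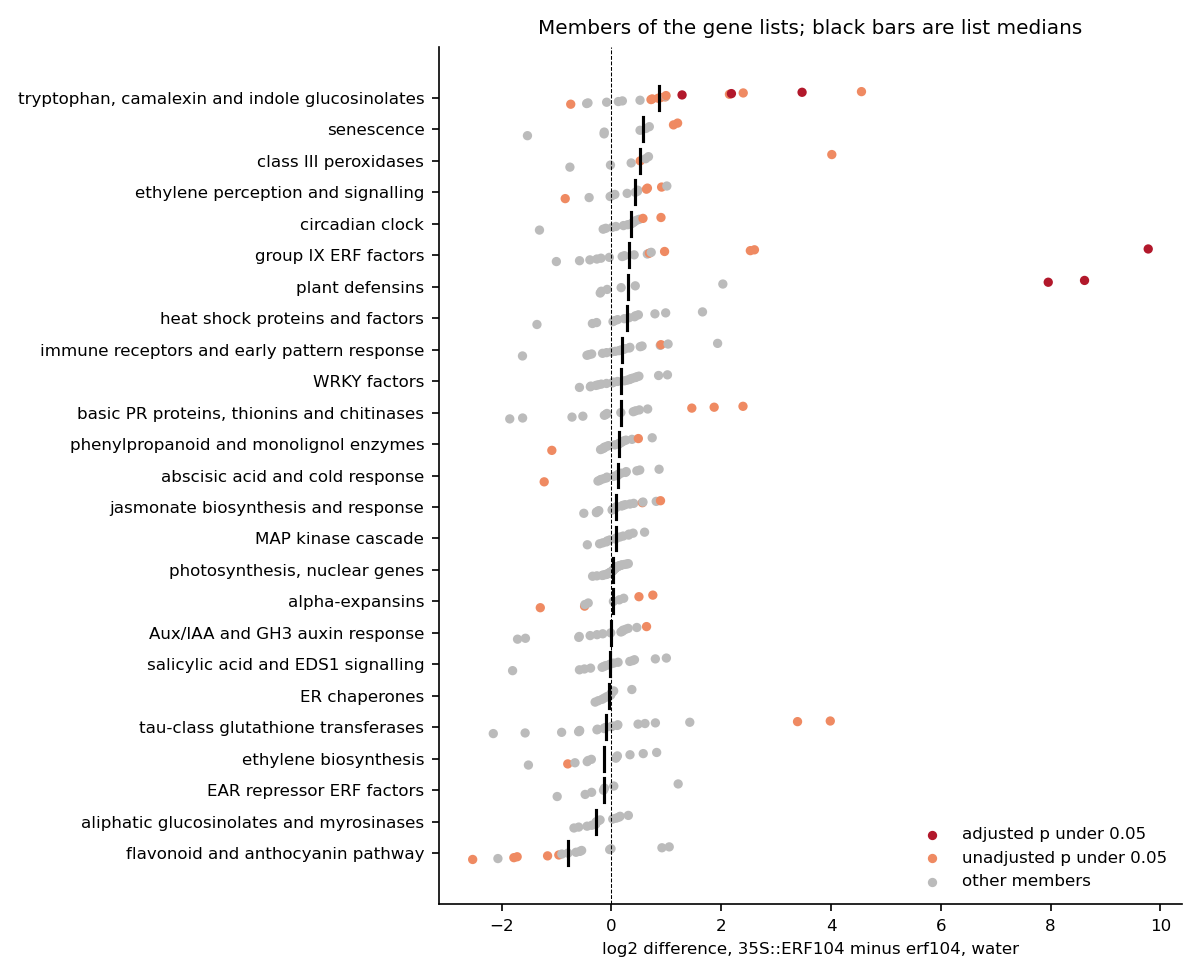
Log2 difference, 35S::ERF104 minus erf104 under water, for each member of 25 functional gene lists, with the list median as a black bar. Red points passed the adjusted threshold, orange points had an unadjusted p under 0.05 and grey points neither. The 6 red points belong to 3 lists, the tryptophan list (3), the plant defensins (2) and the group IX factors (1), and the flavonoid median lies lowest at -0.79.

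The same lines given flg22 are separate arrays that did not enter the comparison under water. On 5 of them, 376 probe sets passed (1.65%), 238 higher in 35S::ERF104 (1.05%) and 138 lower (0.607%). Of the 32 probe sets raised under water, 30 were higher under flg22, where 46.1% of all probe sets were, and 23 passed there in the same direction. In 27 of the 32 the 35S::ERF104 arrays lay wholly above those of erf104, against 14.9% of all probe sets. All 3 lowered probe sets were lower under flg22 too, as were 53.9% of all, 2 of them without overlap (17.7% of all), and ELIP2 passed (at 133, 94.3 and 188 against 623 and 533, limma adjusted p = 0.0126). With erf104 replicate 2 included, AT3G28900 turned to 1.29 (limma adjusted p = 0.717) and only 3 probe sets passed under flg22 (0.0132%), while 31 of the 32 were higher and 26 did not overlap (7.83% of all probe sets). The count of 376 fell to 77 and 86 without erf104 replicate 1 or 3, and to 315, 201 and 175 without 35S::ERF104 replicate 1, 2 or 3.

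The defensins were again far apart under flg22. PDF1.2a read 27032, 17286 and 25626 in 35S::ERF104 and 163 and 60.7 in erf104 (7.85 ± 0.36, limma adjusted p = 2.52e-05). CYP81F2 read 16149, 11763 and 17230 against 1737 and 1761, so both lines were brighter than under water and the difference was 3.09 ± 0.18 (limma adjusted p = 0.000102). MYB51, ASA1, SOT16 and IGMT1, which had not passed under water, passed under flg22 with differences of 3.86 ± 0.25, 1.80 ± 0.18, 1.69 ± 0.15 and 3.08 ± 0.36 (limma adjusted p = 0.000171, 0.00247, 0.00118 and 0.00458). None of these 4 genes passed the test of the difference between treatments given below. In all, 9 of the 20 tryptophan-derived genes passed under flg22, all higher. PR4 and TT4, also short of the threshold under water, passed under flg22 at 2.82 ± 0.23 and -1.46 ± 0.20 (limma adjusted p = 0.000879 and 0.00958). The group IX factors ERF15 and ORA59 passed under flg22 too, at 1.68 ± 0.21 and 4.49 ± 0.88 (limma adjusted p = 0.00742 and 0.0438). Neither passed the test of the difference between treatments (limma adjusted p = 0.801 and 0.896). Of the 15 flavonoid and anthocyanin genes, 3 passed under flg22 as lower and 0 as higher, where 0.607% and 1.05% of all probe sets did. The median of that list under flg22 was 0.05.

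A direct test of the difference between the flg22 and water contrasts, on 11 arrays, passed for 1 probe set of 22746 (0.0044%), RPS12.1, and 1499 (6.59%) had an unadjusted p under 0.05. The contrast for RPS12.1 was 1.99 ± 0.20 under water and -0.36 ± 0.22 under flg22, where the arrays read 482, 416 and 614 in 35S::ERF104 and 749 and 543 in erf104 (interaction -2.35 ± 0.30, limma adjusted p = 0.0336). That test called 3 probe sets without erf104 water replicate 1 or 3, 1 without 35S::ERF104 flg22 replicate 3, and 0 without any 1 of the other arrays. With erf104 flg22 replicate 2 included, the contrast for RPS12.1 under flg22 turned to 0.53 (limma adjusted p = 0.758). The other plastid genes raised under water, picked for that rise, had smaller contrasts under flg22, at 0.36 ± 0.48 for PSBN, 0.42 ± 0.40 for ATPI and -0.03 ± 0.18 for ATPH. None of those 3 differences between treatments passed (limma adjusted p = 0.742, 0.719 and 0.536). The median over all 68 plastid probe sets was about the same in both treatments, as given above. IGMT2 had a larger contrast under flg22, with an interaction of 1.33 ± 0.34 that did not pass (limma adjusted p = 0.609). The interaction of ERF104, 1.66 ± 0.42, did not pass either (limma adjusted p = 0.590). It rests on erf104 means of 33.3 under water, where the gene was called absent, and 9.59 under flg22, so its size cannot be read. In 35S::ERF104 the means of ERF104 were 27010 under water and 26602 under flg22.

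**Figure D5:**
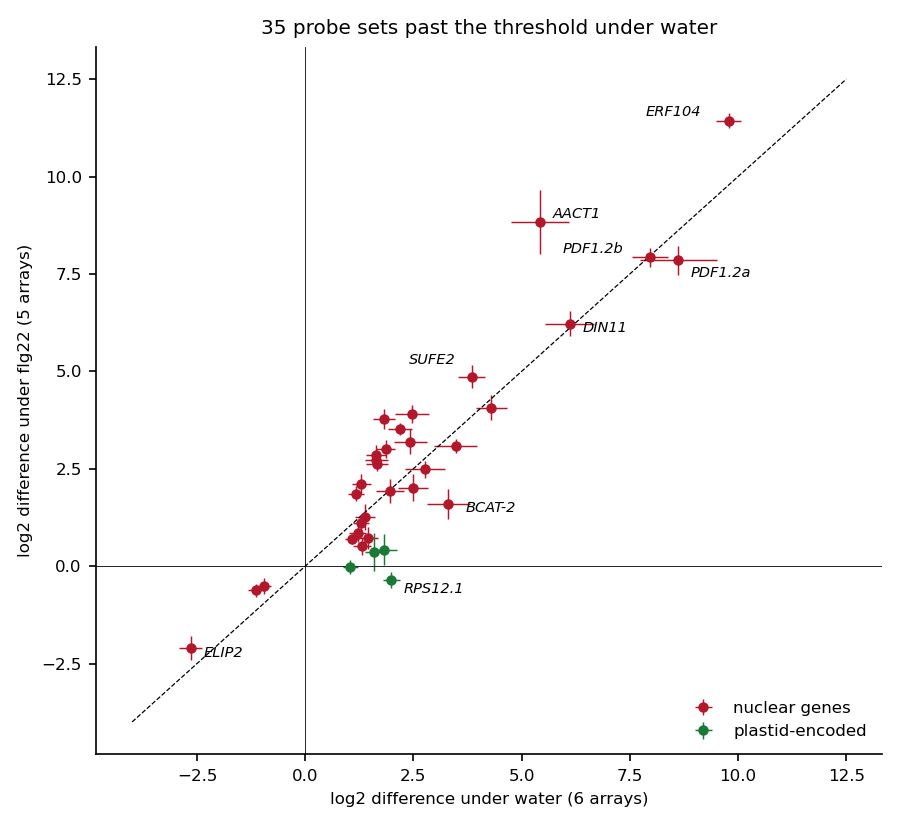
Log2 difference, 35S::ERF104 minus erf104, under water (6 arrays) and under flg22 (5 arrays) for the 35 probe sets past the threshold under water, with SE on both axes and the line of equality dashed. Nuclear genes (red) keep their sign, and the 4 plastid-encoded genes (green) lie between -0.36 and 0.42 under flg22.

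Many raised genes shared an order of arrays within the 35S line. Replicate 2 was the lowest 35S::ERF104 array in 24 of the 32 raised probe sets and replicate 3 the highest in 24, and the full order 2, 1, 3 held in 21, where 16.4% of all probe sets showed it. Under water it held in 7 of the 32 in erf104, 8 in Col-0 and 10 in mpk6, where 13.1%, 26.4% and 11.6% of all probe sets showed it. In Col-0 the raised probe sets thus showed it no more often than all probe sets. In erf104, CYP81F2, NRT2:1, IGMT2 and IGMT3 were among those 7. ERF104 had the same order in 35S::ERF104, at 23344, 26917 and 30769. Within 35S::ERF104 the spread was wider in some raised genes than in ERF104, with AACT1 going from 339 to 1069 and NRT2:1 from 945 to 3517. The 4 plastid genes did not follow it, with replicate 3 the lowest array in each.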

How the data were processed

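Total RNA of infiltrated leaves was labelled with biotin and hybridised to Affymetrix ATH1 arrays, per the labels' protocols. The authors deposited linear intensity values scaled to a common trimmed mean (493 to 498 on every array), by a summarisation method that the labels and headers do not name. Detection calls per group came from the authors' deposited Genespring GX 7.3.1 table, in which the 2 lines carry other names and were matched by elimination, and whose group means equalled those of the value table within 0.1% for 89.1% and 90.7% of probe sets. Its other 48 columns were not used. For erf104 under flg22 those means matched for 86.1% of probe sets without replicate 2 and for 0.11% with it.

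From these, 22746 probe sets (of 22810, without 64 controls) were taken as log2 and fitted in limma 3.58.1 under R 4.3.3 with lmFit and a trended eBayes, and p-values were adjusted over all of them by Benjamini-Hochberg, with a threshold of 0.05. The script was tested on simulated data. Probe sets were named through RefSeq locus tags (22091 matched), and a gene with several was read from its brightest. Named genes were ERF104, the 15 largest rises and 15 largest falls among called probe sets specific to 1 gene, up to 2 passing members per list and direction, all plant defensins and group IX factors, and MPK6, FRK1, PR1, WRKY33 and EBF2. Other genes were named after their values were seen. Of 427 genes on 30 lists, 406 were on the array. The comparison, its lists and its tests were chosen with earlier results of these data known. The labels give no batch. The number of arrays limits the precision.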

Additional observations from a re-analysis of the deposited data

Results flagged for a closer look

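RPS12.1, a plastid gene, differed between treatments. Its contrast of 35S::ERF104 with erf104 changed by -2.35 on the log2 scale from water to flg22, by the test of that difference on 11 arrays (limma adjusted p = 0.0336). The test called 0 probe sets without the intensity trend, with arrays centred on their median, with a pseudocount of 32, with probe sets filtered on the detection calls and with erf104 flg22 replicate 2 included.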

How the results depend on the processing

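The count of 35 probe sets under water became 1 without the intensity trend, 23 after quantile normalization and 12 with a pseudocount of 32. It was 22 in a fit of only the 15081 probe sets with a present or marginal call in at least 1 group. In a fit of only the probe sets without a suffix it was 23. With 12 water arrays or 23 arrays in the fit it was 5, and by the methods' ANOVA after Benjamini-Hochberg adjustment it was 0. At the methods' own threshold (unadjusted p under 0.05 and more than 3-fold) it was 387. Leaving out 1 array gave 8 to 158. The fitted difference of ERF104, 9.78 and not a bound, is the same in that ANOVA by construction, as both use the group means. Its call was lost there (ANOVA adjusted p = 0.180). The labels do not say whether replicate numbers pair the lines. Same-numbered arrays correlated at -0.02, -0.03 and 0.03 in their deviations, which with 3 arrays a group cannot exclude a pairing. With a replicate block the counts were 137 under water, 1138 under flg22 and 2 for the difference between treatments. Under flg22, 376 became 1 without the trend, 212 with the pseudocount and 3 with erf104 replicate 2, and 77 to 315 when 1 array was left out. The difference between treatments gave 1 probe set, 2 after quantile normalization, 0 without the trend, with centred arrays, the pseudocount, the call filter or erf104 replicate 2, and 0 to 3 when 1 array was left out. The cause of these shifts was not tested.

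No gene past the threshold turned its direction under water in any setting run. Genes that did not pass turned as follows. With a pseudocount of 32, ERF1B became -0.11 and PDF2.5 -0.056. EBF2 became -0.041 after quantile normalization and -0.001125 with centred arrays. When 1 array was left out, values ranged from -0.88 to 1.04 for ERF1B, -0.50 to 0.084 for ERF5, -0.76 to 0.68 for AT4G18450, -0.64 to 0.82 for ERF98, -0.45 to 1.25 for ERF105, -0.26 to 0.20 for AT5G61590, -0.56 to 0.28 for PDF1.4, -1.73 to 1.51 for PDF2.1, -0.013 to 0.36 for PDF2.3, -0.80 to 1.4 for PDF2.5, -0.52 to 0.23 for FRK1 and -0.17 to 0.20 for EBF2. Of the 34 probe sets called under water beside ERF104, 34 lost the call without the trend, 12 after quantile normalization, 23 with the pseudocount and 6 with centred arrays.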
